A study of Mus musculus with 12 samples.

Results

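Mfsd2a, Sgk2, Kcnh6, Pigr and Lgr6 were 5 of the 61210 genes in the count table of the interscapular brown adipose tissue (iBAT) libraries. They were selected on their rise after cold treatment in these same libraries, so their values in the cold are given as a description and carry no test here. The 12 libraries of total RNA came from 4 groups of 3 samples of C57BL/6N mice at 20 weeks of age. Mice of the groups NCD RT and NCD cold received the control diet (NCD), and mice of the groups HFD RT and HFD cold a high-fat diet (HFD) for 12 weeks from 8 weeks of age. The cold groups spent the last 24 h at 4 °C, while the RT groups stayed at room temperature. No group carried an engineered allele, and the sex of the mice was not given in the sources used here. The labels number the samples of a group as replicates without saying more, so p-values measure the spread between these samples.

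Brown adipocytes burn fatty acids in their mitochondria to make heat when noradrenaline released in the cold raises cAMP in the cell. The 5 genes encode proteins of unrelated families. Mfsd2a encodes a transporter of the plasma membrane that imports lysophosphatidylcholine carrying long-chain fatty acids, known best from the blood-brain barrier and from liver, where fasting induces it. Sgk2 encodes a serine/threonine kinase of the SGK family, whose members act on ion channels and transporters. Kcnh6 encodes a voltage-gated potassium channel of the ether-à-go-go related (ERG) group. Pigr encodes the polymeric immunoglobulin receptor, which carries dimeric IgA and IgM across epithelia. Lgr6 encodes a receptor with leucine-rich repeats that binds R-spondins, the secreted proteins that enhance Wnt signalling.

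On GRCm38, Mfsd2a lies on the minus strand at chr4:122946850-122961188 and Lgr6 on the minus strand at chr1:134983301-135105276. Pigr lies on the plus strand of the same chromosome at chr1:130826684-130852249, Sgk2 on the plus strand at chr2:162987330-163014127, and Kcnh6 on the plus strand at chr11:106008124-106034549. All 5 are protein-coding, and the counts cover all their transcripts. RefSeq promoters on GRCm38.p6, from 250 bases before to 50 after the start site, were matched for 4 of the 5 members, Sgk2 being the exception. The windows of Mfsd2a, Kcnh6 and Pigr are shown, because these genes had the lowest levels at room temperature among the 4 matched and the largest folds in the cold, by which they were chosen. Capitals mark the cAMP response element half-site CGTCA and the nuclear receptor half-site AGGTCA on either strand.
Mfsd2a: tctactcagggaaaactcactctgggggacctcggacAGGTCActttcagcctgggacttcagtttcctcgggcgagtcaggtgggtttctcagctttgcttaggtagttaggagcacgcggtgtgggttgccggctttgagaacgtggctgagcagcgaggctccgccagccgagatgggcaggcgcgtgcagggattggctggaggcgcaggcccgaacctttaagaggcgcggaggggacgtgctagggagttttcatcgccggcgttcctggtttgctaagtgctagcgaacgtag
Kcnh6: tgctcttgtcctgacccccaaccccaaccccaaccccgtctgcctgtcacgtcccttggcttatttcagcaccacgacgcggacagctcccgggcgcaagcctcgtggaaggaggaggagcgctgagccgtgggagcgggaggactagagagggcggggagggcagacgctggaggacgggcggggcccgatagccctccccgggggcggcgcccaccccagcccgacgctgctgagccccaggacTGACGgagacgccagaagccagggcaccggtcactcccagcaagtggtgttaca
Pigr: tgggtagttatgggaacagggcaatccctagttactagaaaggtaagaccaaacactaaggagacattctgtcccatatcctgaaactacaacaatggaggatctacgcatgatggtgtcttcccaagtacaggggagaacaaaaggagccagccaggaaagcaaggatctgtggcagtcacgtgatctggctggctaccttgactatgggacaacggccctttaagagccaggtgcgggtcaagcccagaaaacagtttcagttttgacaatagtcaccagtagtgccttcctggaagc
The 3 windows printed had none of the searched words in common. The Mfsd2a window at chr4:122961139-122961438 held AGGTCA at position -213 from the start site, a word found in 16.3% of the 32851 RefSeq promoters of this length. In the Kcnh6 window at chr11:106007898-106008197, CGTCA was present on the minus strand at position -4, a word found in 20.8% of all promoters. Kcnh6 further held 3 copies of the GC box GGGCGG, at -99, -72 and -46, and Lgr6 held 2, at -245 and 45, while 35.7% of all promoters held at least 1. Neither the full element TGACGTCA (1.79% of promoters, which includes CGTCA) nor AAAGGTCA (1.51%, which includes AGGTCA) nor TATAAA (13.6%) was found in the 4 windows, and the Pigr window held none of the words. These matches describe letters and not binding.

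The libraries held between 15136861 and 46740702 counts, and replicate 3 of each group formed a batch of its own by the labels. All 10 brown adipocyte markers stood above 1 CPM (read counts scaled to a common library size, with TMM normalization) in every library, and their summed level lay between 13393 and 32840 CPM. GEO's own text names the tissue inguinal, whereas the study describes interscapular brown fat. Skeletal muscle markers differed between libraries of a group, with sums up to 15140 CPM in NCD RT replicate 2, 8281 in NCD cold replicate 2, 15943 in HFD RT replicate 3 and 4869 in HFD cold replicate 3, against 521 to 3208 CPM in the other 8 libraries. In bulk tissue, fewer cells of a type and less RNA per cell cannot be told apart. A total of 16737 genes, among them all 5 members, passed the filter on low counts. Kcnh6 and Pigr passed it only with their HFD cold libraries, since no library at room temperature held more than 5 counts of either and they did not pass it in the NCD libraries alone.

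Mfsd2a, the lysolipid transporter, was nearly silent at room temperature and among the clearly detected genes in the cold. NCD RT libraries held 4, 22 and 21 counts in replicates 1 to 3, or 0.249, 1.28 and 0.514 CPM. NCD cold libraries held 228, 2639 and 2110 counts, or 13.1, 155 and 49.9 CPM. Both cold groups lay above both groups at room temperature in every library, but the NCD cold libraries spread 11.9-fold among themselves. On HFD, the libraries at room temperature held 10, 53 and 251 counts (0.644, 2.77 and 7.09 CPM), and those in the cold 1482, 1802 and 3583 counts (66.7, 79.3 and 83.5 CPM). HFD cold was the most even group, with a highest library 1.25-fold above the lowest. The mean was 0.681 ± 0.535 CPM (SD, n = 3) in NCD RT, 72.8 ± 73.8 in NCD cold, 3.50 ± 3.28 in HFD RT and 76.5 ± 8.74 in HFD cold. The fitted log2 fold change in the cold was 6.78 on NCD and 4.37 on HFD. In each of the 4 groups, the library with the highest Mfsd2a level was the one with the highest sum of skeletal muscle markers. Without these 4 libraries the log2 fold change was 6.20 on NCD and 5.37 on HFD. On HFD the libraries left out were those of replicate 3, a batch of their own, so muscle and batch cannot be told apart there.

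Sgk2, the kinase, followed the same order of groups at lower levels. In NCD RT it held 8, 13 and 18 counts, or 0.498, 0.756 and 0.441 CPM, and in NCD cold 322, 464 and 342 counts, or 18.5, 27.3 and 8.10 CPM. In HFD RT it held 29, 40 and 98 counts, or 1.87, 2.09 and 2.77 CPM, and in HFD cold 1566, 693 and 1210 counts, or 70.5, 30.5 and 28.2 CPM. No pair of groups overlapped in these libraries, and the order NCD RT, HFD RT, NCD cold, HFD cold held from the lowest to the highest. The group means were 0.565 ± 0.168, 2.24 ± 0.468, 18.0 ± 9.62 and 43.1 ± 23.8 CPM in that order (SD, n = 3). Its log2 fold change in the cold was 5.02 on NCD and 4.24 on HFD.

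Kcnh6, the potassium channel, was at 0 counts in all 3 NCD RT libraries, where a count of 0 allows up to 3 counts per library, or 0.0735 to 0.187 CPM. It reached 14, 32 and 8 counts (0.803, 1.88 and 0.189 CPM) in NCD cold. On HFD it held 1, 3 and 5 counts (0.0644, 0.157 and 0.141 CPM) at room temperature and 383, 189 and 515 counts (17.2, 8.32 and 12.0 CPM) in the cold. Only the HFD cold libraries therefore held more than 32 counts of this gene. Against the floor of 3 counts per library, NCD cold was at least 6.62-fold higher than NCD RT. On HFD, pooled counts per library size were 96.3-fold higher in the cold, with an exact 95% interval of 50.6 to 211 that covers counting error only.

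Pigr, the immunoglobulin receptor, was at 1, 1 and 0 counts in NCD RT and at 0, 1 and 4 counts in HFD RT, which left the groups at room temperature near the floor. In NCD cold it held 9, 32 and 19 counts, or 0.516, 1.88 and 0.450 CPM. HFD cold libraries held 158, 66 and 294 counts, or 7.11, 2.91 and 6.85 CPM, and all 3 lay above every other library. The ratio of pooled counts in the cold was 29.0 on NCD (7.68 to 245) and 82.6 on HFD (35.2 to 256), again with intervals for counting error only.

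Lgr6, the R-spondin receptor, differed from the other 4 by a high level at room temperature and a smaller rise. It held 1592, 1581 and 4920 counts (99.0, 91.9 and 120 CPM) in NCD RT and 6056, 7202 and 13379 counts (347, 424 and 317 CPM) in NCD cold. In HFD RT it held 4096, 5260 and 8536 counts (264, 275 and 241 CPM), and in HFD cold 9620, 14057 and 16063 counts (433, 619 and 374 CPM). The 4 means were 104 ± 14.9, 363 ± 55.2, 260 ± 17.3 and 475 ± 128 CPM (SD, n = 3), and HFD RT libraries sat between the NCD groups without overlap with either. Its log2 fold change in the cold was 1.80 on NCD and 0.87 on HFD.

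**Figure D1:**
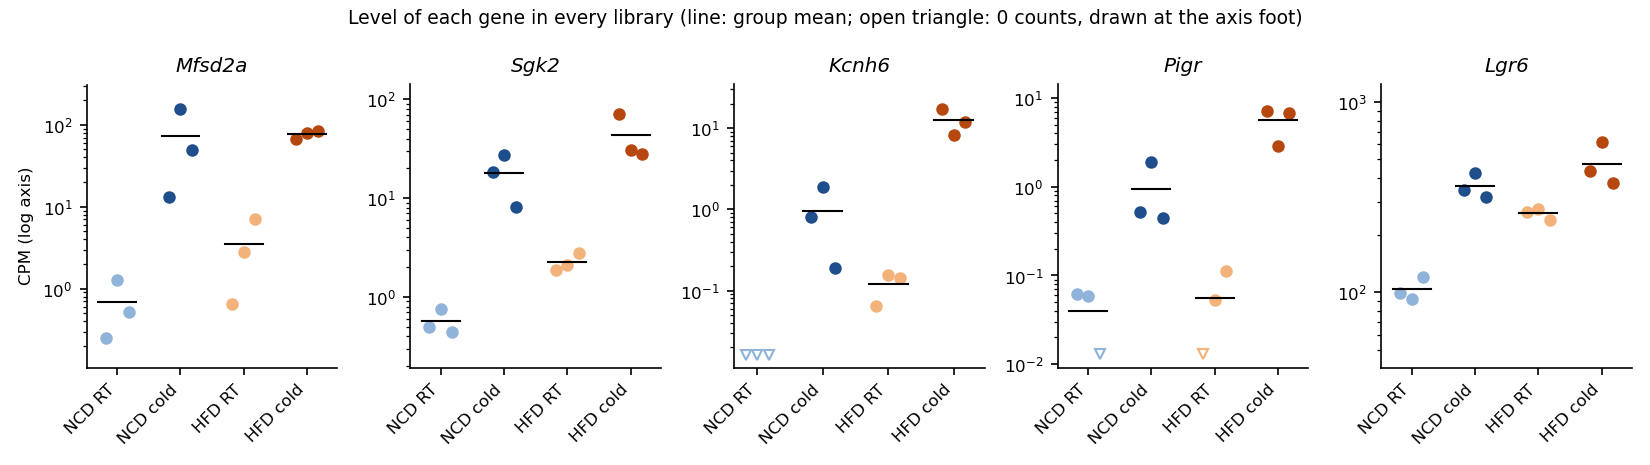
Level of each of the 5 genes in every library, in CPM on a log axis, with 3 points per group, a line at the group mean and open triangles for libraries with 0 counts. Cold libraries lie above the libraries at room temperature of the same diet in all 5 panels, and Kcnh6 and Pigr reach their highest levels in HFD cold.

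The size of the rise can be placed among all genes called higher in the cold on NCD. A call required an adjusted p below 0.05 and a log2 fold change beyond 0.5, and 6.27% of the genes tested passed it in either direction on NCD and 9.58% on HFD. All 5 members passed it on both diets, which their choice had fixed. Among the 561 coding genes that rose on NCD, Kcnh6, Mfsd2a and Sgk2 ranked 1 to 3 by fitted log2 fold change. Pigr ranked 5, between Acot5 (4.84) and Cdcp1 (4.04), whereas Lgr6 ranked 62, between Gm44502 (1.81) and Fabp3 (1.78). The fitted value of Kcnh6 rests on a group at 0 counts and depends on the prior count of the fit. Kcnh6 and Pigr entered this ranking only through their HFD cold libraries, so their ranks are a description and no result. Leaving out NCD RT replicate 3, the deepest library of its group, left 3 members called on NCD, Kcnh6 and Pigr being lost at log2 fold changes of 7.47 and 3.83. Leaving out the library of each group with the highest muscle sum lost the same calls, at 6.38 and 4.36. Within replicates 1 and 2, the first batch, 3 members were called on NCD, Mfsd2a and Pigr being lost at log2 fold changes of 6.75 and 4.17, and on HFD the call of Mfsd2a was lost at 5.37. In the single pair of libraries of the second batch, the CPM ratio of cold to room temperature on NCD was 97.1 for Mfsd2a, 18.4 for Sgk2 and 2.63 for Lgr6.

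Levels between the genes were compared per kb of exon. In every group Lgr6 was highest, followed by Mfsd2a and Sgk2, and Kcnh6 and Pigr were lowest. In NCD RT, Lgr6 stood at 15.2 ± 2.17 CPM per kb and Mfsd2a at 0.302 ± 0.238, without overlap. In NCD cold, Mfsd2a at 32.3 ± 32.8 CPM per kb overlapped both Lgr6 at 52.9 ± 8.06 and Sgk2 at 5.26 ± 2.82. In HFD cold the 5 genes were in separate ranges, from Lgr6 at 69.4 ± 18.6 over Mfsd2a (34.0 ± 3.89), Sgk2 (12.6 ± 6.97) and Kcnh6 (3.53 ± 1.26) to Pigr (1.40 ± 0.586). In the other 3 groups the libraries of Kcnh6 and Pigr overlapped, and those of Mfsd2a and Sgk2 overlapped at room temperature on both diets.

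The next comparison asked whether HFD altered the level of the genes at room temperature. This contrast did not choose the members, but it shares the NCD RT libraries with the cold contrast that did, as HFD in the cold shares those of NCD cold. Lgr6 was the 1 member called, against 2.09% of all genes tested. Its level was 2.50-fold higher in HFD RT than in NCD RT, with a log2 difference of 1.32 (SE 0.19, edgeR adjusted p = 0.0063). It kept this call in each of the 12 fits that left out 1 library, with log2 differences between 1.24 and 1.41, and lay at 1.50 within the first batch and 1.00 in the pair of libraries of the second. Endothelial markers moved in the same direction without overlap, from sums of 473 to 595 CPM in NCD RT to 664 to 916 in HFD RT, with 5 of 5 higher at a median of 0.47 and Pecam1 called at 0.72. Sums of Schwann cell and nerve markers, at 146 to 170 against 244 to 323 CPM, and of smooth muscle and pericyte markers, at 612 to 658 against 743 to 841 CPM, did not overlap either. Gene by gene these 2 lists were mixed. Of 5 Schwann cell and nerve markers tested, 2 were higher, 1 of them called, with a list median of -0.23. Of 5 smooth muscle and pericyte markers, 3 were higher and 0 called, with a median of 0.04. Their part in the result was not tested. Sgk2 was higher in 3 of 3 HFD RT libraries, by 2.05 (SE 0.56, 95% interval 0.82 to 3.29), and did not pass the edgeR test at an adjusted p of 0.0871, although DESeq2 called it at an adjusted p of 0.00186. For Mfsd2a, the groups overlapped and the log2 difference was 2.48 (SE 1.01, 95% interval 0.26 to 4.71, edgeR adjusted p = 0.227). It was 1.18 within the first batch and 3.78 in the second, where HFD RT replicate 3 carried 15943 CPM of muscle markers against 3208 in its NCD partner. The part of muscle in that value was not tested. Kcnh6, with 0 counts in NCD RT and 9 in HFD RT over 3 libraries each, and Pigr, with 2 and 5, were too low for a fold, and a difference was not detectable at this depth.

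In the cold, HFD went with higher levels of the 2 rarest members. Kcnh6 and Pigr were called, and 4.75% of all genes tested were. Both had entered the test only through HFD cold, the group in which they are high. Neither the number of members called nor the adjusted p of these 2 genes is therefore a result by itself, and their values here are a description. Kcnh6 was 13.1-fold higher in HFD cold than in NCD cold, with a log2 difference of 3.80 (SE 0.66, edgeR adjusted p = 0.0148), and every HFD cold library exceeded every NCD cold library. Pigr was 5.92-fold higher by means, with a log2 difference of 2.61 (SE 0.63, edgeR adjusted p = 0.0399), and its groups did not overlap either. Both calls were lost without NCD cold replicate 1 or HFD cold replicate 1, at log2 differences of 3.71 and 3.51 for Kcnh6 and 2.33 and 2.44 for Pigr. The Pigr call was also lost without NCD RT replicate 1 or 2, NCD cold replicate 3, HFD RT replicate 2 or HFD cold replicate 3, with log2 differences from 2.22 to 2.61, and with the replicate block, at an adjusted p of 0.0551. Within the first batch neither passed, with log2 differences of 3.25 for Kcnh6 and 2.06 for Pigr, while the pair of libraries in the second batch gave CPM ratios of 63.4 and 15.2. Without the library of each group with the highest muscle sum both were called, at 4.91 and 3.38. Macrophage markers moved in the same direction, with sums of 157 and 114 CPM in HFD cold replicates 1 and 2 and a higher sum in replicate 3, against 83.0 to 112 in NCD cold. All 6 were higher, 2 of them called (Mrc1 by 1.10 and Itgam by 1.19), with a median of 0.91, and HFD cold replicate 2 was the lowest of its group in this sum as in Kcnh6 and Pigr. Endothelial sums were also higher without overlap, at 886 to 1023 CPM in HFD cold against 683 to 770 in NCD cold. Of these 5 markers, 5 were higher and 0 called. Brown adipocyte sums moved the other way without overlap, at 20714 to 26162 CPM in HFD cold against 28645 to 32840 in NCD cold. Of these 10 markers, 2 were higher and 1 was called lower. Hepatocyte and epithelial sums were also lower without overlap. The part of these lists in the result was not tested.

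The other 3 members were not called in the cold by edgeR with the filter on low counts. Sgk2 was 2.40-fold higher in HFD cold by means, with a log2 difference of 1.27 (SE 0.43, 95% interval 0.33 to 2.21, edgeR adjusted p = 0.107), and higher in 3 of 3 libraries. DESeq2 called it at an adjusted p of 0.0253, and edgeR without the filter at 0.0370. Lgr6 differed by 0.39 (SE 0.19, 95% interval -0.015 to 0.80, edgeR adjusted p = 0.238), with overlapping groups. For Mfsd2a the log2 difference was 0.07 (SE 0.76, 95% interval -1.59 to 1.74, edgeR adjusted p = 0.974), an interval that leaves room for a 3-fold difference in either direction. Averaged over both temperatures, HFD gave 3 called members, Sgk2, Kcnh6 and Lgr6, against 7.8% of all genes tested. Kcnh6 had entered the test only through HFD cold, so neither this number nor the Kcnh6 call is a result by itself. Sgk2 was higher by 1.66 (SE 0.35, edgeR adjusted p = 0.0122), a call that each of the 12 fits without 1 library kept, and Lgr6 by 0.86 (SE 0.13, edgeR adjusted p = 0.00259). Kcnh6 passed at an adjusted p of 0.0197, with no size given because NCD RT was at 0 counts, and lost the call without HFD RT replicate 2 or 3. In the first batch alone, Sgk2 at 1.39 and Kcnh6 no longer passed.

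**Figure D2:**
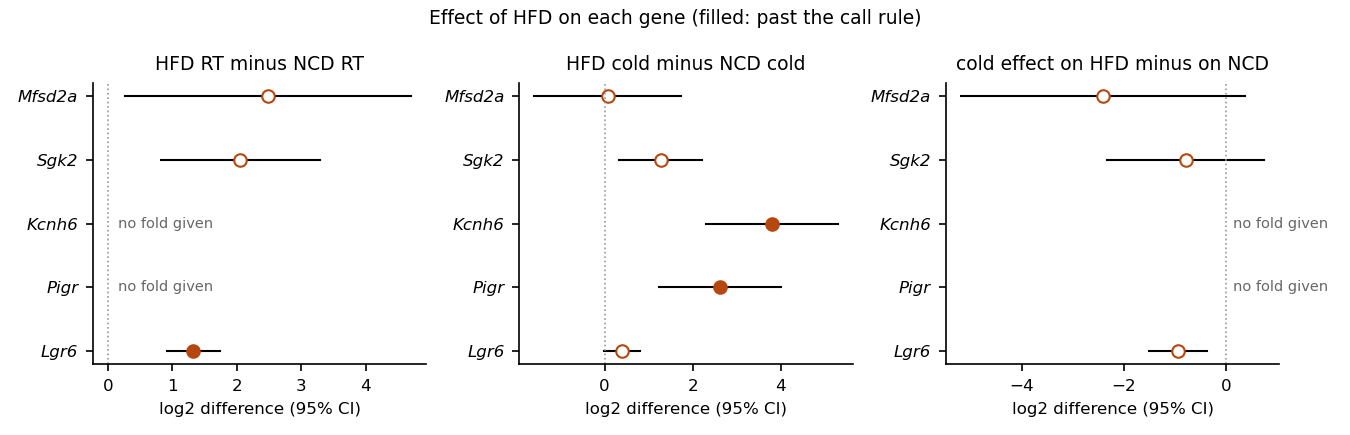
Effect of HFD on each gene as a log2 difference with its 95% interval from edgeR, at room temperature, in the cold, and as the difference between the cold effects on HFD and on NCD, with filled points past the call rule. Lgr6 at room temperature (1.32) and Kcnh6 (3.80) and Pigr (2.61) in the cold are filled, and no fold is given for Kcnh6 and Pigr where a group held only a few counts. Kcnh6 and Pigr entered the test only through HFD cold.

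Whether HFD altered the cold response itself was tested by the interaction of diet and temperature. No member passed, and 0.0% of the genes tested by edgeR did (0 of 16737), while 1091 had an unadjusted p below 0.05 and DESeq2 called 61. For Lgr6 the cold effect was smaller on HFD by 0.93 on the log2 scale (an interaction of -0.93, SE 0.26, 95% interval -1.51 to -0.36), at an unadjusted p of 0.0043 and an edgeR adjusted p of 0.564. The interaction was -2.41 for Mfsd2a (SE 1.27, 95% interval -5.20 to 0.38, edgeR adjusted p = 0.806) and -0.78 for Sgk2 (SE 0.70, 95% interval -2.32 to 0.75, edgeR adjusted p = 0.877). These values rest on the same 12 libraries by whose cold response the members were chosen, so they are not independent of that choice. Choice on a large cold effect on NCD pulls the interaction toward negative values. For Kcnh6 and Pigr the adjusted p was 0.922 and 0.926, and the size cannot be bounded with both groups at room temperature near the floor.

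The genes closest to each member by name moved less in the cold, as the plot of relatives shows. The members had been chosen for their rise in the cold, which favoured this difference. Mfsd2b, a sphingosine-1-phosphate exporter, had log2 fold changes of 0.46 on NCD and -0.48 on HFD and passed on neither diet. Of the 18 tested among 24 listed MFSD transporters, Mfsd4b1, a sugar transporter, was called higher on both diets, by 1.14 on NCD (SE 0.19, edgeR adjusted p = 0.00593) and 0.89 on HFD (SE 0.19, edgeR adjusted p = 0.0123). Mfsd1 rose by 0.59 and Mfsd7a fell by 1.09 on HFD, and the difference between the diets was past the test for neither. The list median was 0.15 on both diets, while that of all genes was -0.0089 on NCD and -0.039 on HFD, and edgeR called 0 of the 18 for HFD at room temperature (5 at an unadjusted p below 0.05, 1 by DESeq2) and 0 for HFD in the cold (6 and 0). Among 21 genes that handle lysophospholipids, cold treatment raised 3 and lowered 2 on NCD, and 4 and 2 on HFD. Of all genes tested, 6.27% were called in either direction on NCD and 9.58% on HFD. The lists were chosen with earlier results of these data known. Lclat1, a lysocardiolipin acyltransferase, rose by 0.97 on NCD and 1.20 on HFD, and Lpgat1, an acyltransferase for lysophosphatidylglycerol, by 0.54 and 0.82. Pla2g16, an adipocyte phospholipase A, fell by 0.76 on NCD and 0.83 on HFD, and Enpp2, which encodes the lysophosphatidic acid producing enzyme autotaxin, fell by 0.88 and 1.18. Lpcat3, which builds polyunsaturated phosphatidylcholine from lysophosphatidylcholine, was lower in HFD RT by a log2 difference of -0.72 (SE 0.13, edgeR adjusted p = 0.0203), but rose by 0.71 in the cold on HFD, which left it at 69.6 ± 12.7 CPM in HFD cold and 77.3 ± 7.36 in NCD cold.

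Sgk1, the stress-inducible relative of Sgk2, rose from 55.6 ± 7.76 to 134 ± 15.3 CPM on NCD, by 1.26 on the log2 scale (SE 0.18, edgeR adjusted p = 0.00244), and by 1.15 on HFD. Per kb it stood above Sgk2 in all 4 groups, at 11.3 against 0.166 CPM per kb in NCD RT and 33.3 against 12.6 in HFD cold. Sgk3 did not pass, with log2 fold changes of -0.16 and -0.06. Of the 22 tested among 23 listed SGK kinases, regulators and substrates, cold treatment raised 3 and lowered 1 on NCD, and raised 2 on HFD. The shares of all genes tested were 6.27% and 9.58%. Pdpk1, the kinase that activates SGKs, rose by 0.55 and 0.60, Mtor rose by 0.63 on NCD, and Prr5, a subunit of mTOR complex 2, fell by 1.16 on NCD. For HFD, Ndrg1, a substrate of SGKs, was called higher at room temperature by 0.52 (SE 0.11, edgeR adjusted p = 0.0292). The median of the list was 0.04 in the cold on NCD.

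Kcnh2, the ERG channel closest to Kcnh6, passed on HFD with a rise of 1.11 (SE 0.29, edgeR adjusted p = 0.0302), from 1.81 ± 0.475 to 3.89 ± 0.795 CPM, and stood at 0.48 on NCD without passing. Kcnh7 was not tested, with 9 to 20 counts summed over each group. Among the 9 tested of 18 listed channels and partners, the two-pore channel Kcnk3, which sets the resting potential in brown adipocytes, rose by 1.32 on NCD and 1.57 on HFD. Calls in the cold were 1 on NCD and 2 on HFD, against 6.27% and 9.58% of all genes tested. For HFD in the cold, edgeR called 0 of the 9 (1 at an unadjusted p below 0.05, 0 by DESeq2). The list median was 0.43 on NCD and 0.34 on HFD.

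Of the transcripts for the IgA and IgM carried by Pigr, Ighm and Jchain were tested, and edgeR called neither higher in the cold. Igha, the IgA heavy chain, was not tested, at 9, 12, 12 and 13 counts over NCD RT, NCD cold, HFD RT and HFD cold. Jchain, the joining chain of polymeric IgA and IgM, held 19 to 37 counts per group and had log2 fold changes of -0.26 on NCD and -1.33 on HFD, neither past the test. Fcamr, a neighbouring Fc receptor for IgA and IgM, held 5, 0, 1 and 0 counts over NCD RT, NCD cold, HFD RT and HFD cold. Of 11 tested genes of immunoglobulin transport and plasma cells among 19 listed, edgeR called 0 in the cold on NCD (3 at an unadjusted p below 0.05, 1 by DESeq2) and 1 lower on HFD. Of all genes tested, 6.27% and 9.58% were called. The gene called lower on HFD was Ighm, the heavy chain of IgM, which stood at 8.99 ± 1.87 CPM in NCD RT, 10.6 ± 3.24 in NCD cold, 57.9 ± 21.1 in HFD RT and 22.9 ± 8.43 in HFD cold. It was higher in HFD RT by 2.69 (SE 0.37, edgeR adjusted p = 0.00534) and fell by 1.34 in the cold on HFD. The summed B cell and plasma cell markers lay between 1.11 and 3.03 CPM in all 12 libraries.

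Lgr4, the widely expressed R-spondin receptor, did not pass in any contrast, with log2 fold changes in the cold of -0.23 on NCD and 0.17 on HFD, and Lgr5 held 1 to 6 counts per group. Lgr6 was the dominant receptor of the 3 per kb, at 15.2 against 6.63 for Lgr4 in NCD RT and 69.4 against 6.07 in HFD cold. Of the 26 tested among 39 listed genes of the R-spondin, LGR and Wnt pathway, 1 was called higher in the cold on each diet, Lrp5 on NCD (0.55) and Fzd6 on HFD (0.64), both encoding Wnt receptors. Of all genes tested, 6.27% were called on NCD and 9.58% on HFD. Rspo4, a ligand of Lgr6, was higher on HFD at both temperatures, at 7.61 ± 2.97 against 2.29 ± 0.515 CPM at room temperature and 7.40 ± 3.33 against 2.77 ± 0.414 CPM in the cold. Its log2 differences were 1.73 (SE 0.37, edgeR adjusted p = 0.0402) and 1.41 (SE 0.37, edgeR adjusted p = 0.0497). Averaged over temperatures, Axin2, a target gene and inhibitor of Wnt signalling, was higher on HFD by 0.67 (SE 0.20, edgeR adjusted p = 0.0434). The list median was -0.26 in the cold on NCD and -0.04 on HFD.

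**Figure D3:**
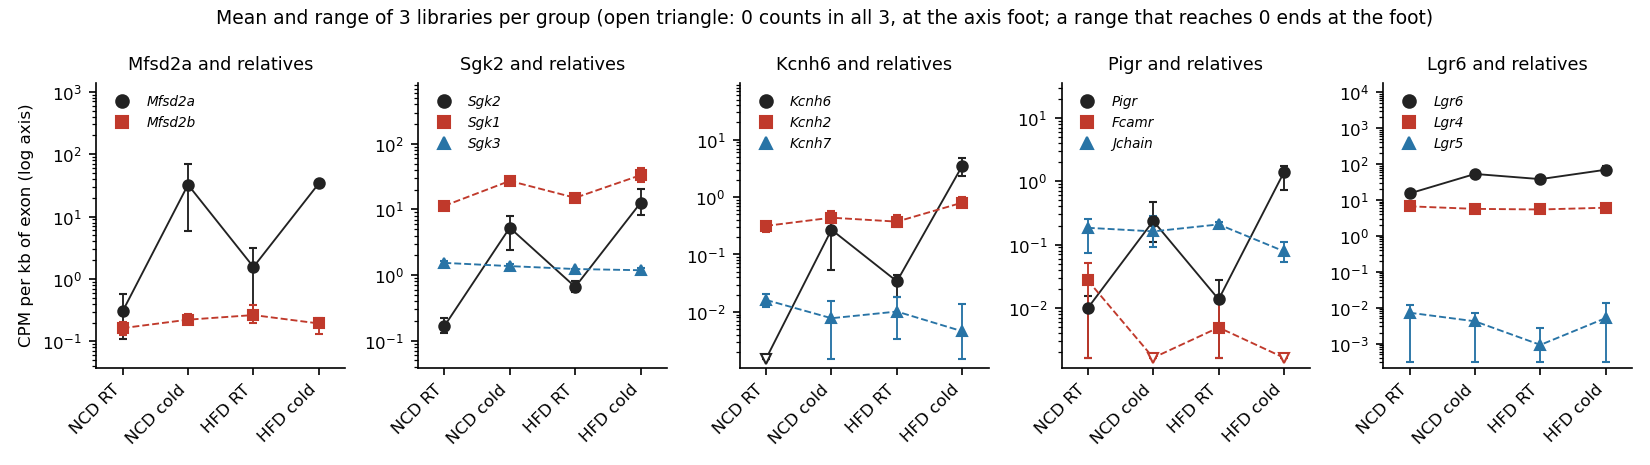
Level per kb of exon of each member and the relatives named with it, as the mean and range of 3 libraries per group on a log axis, with open triangles where all 3 libraries held 0 counts. Sgk1 stays above Sgk2 in all groups, while Kcnh6 passes Kcnh2 in HFD cold alone and Lgr4 stays near 6 CPM per kb.

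A list of thermogenic genes served as a reference for the size of the cold effect. Of 14 tested, 7 were called higher in the cold on NCD and 5 on HFD, with a median log2 fold change of 1.80 and 1.28. The shares of all genes called in either direction were 6.27% and 9.58%. Ucp1, the uncoupling protein, rose by 1.96 on NCD and 0.92 on HFD, and Dio2, the deiodinase that activates thyroid hormone, by 2.86 and 2.62. Lgr6, at 1.80 and 0.87, was near Ucp1 in both, while Mfsd2a and Sgk2 exceeded all 14 on both diets. The choice of the members for their rise in the cold favoured this.

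**Figure D4:**
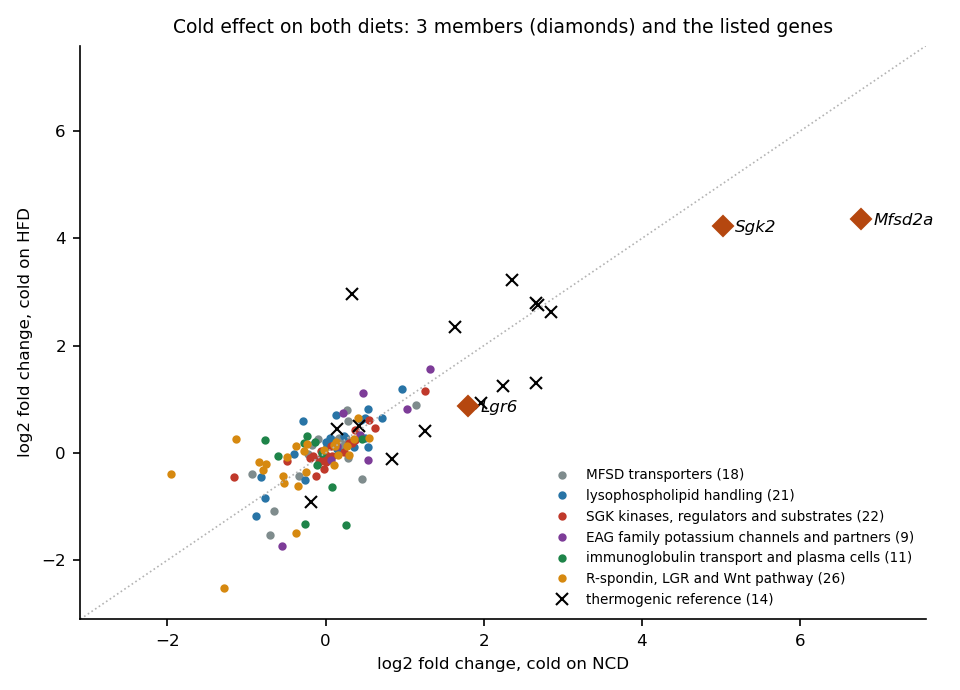
Log2 fold change in the cold on HFD against that on NCD for Mfsd2a, Sgk2 and Lgr6 (diamonds) and the 121 tested genes of the lists, with a dotted line of equality; Kcnh6 and Pigr are left out because their folds rest on counts near 0. Mfsd2a and Sgk2 stand apart at the upper right, and Lgr6 lies close to the thermogenic genes (crosses).

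Sgk2, Pigr and Lgr6 are known from epithelia and liver, so markers of those cells were examined. The summed level of 8 epithelial markers was 2.03 to 2.09 CPM in NCD RT, 0.402 to 1.00 in NCD cold, 0.515 to 0.732 in HFD RT and 0.135 to 0.396 in HFD cold, and Krt5 was at 0 in all libraries. These sums moved against the members. Hepatocyte markers summed to 26.8 to 44.0 CPM in NCD RT and 25.6 to 47.8 in NCD cold, and to 4.96 to 12.4 and 12.0 to 20.1 CPM in HFD RT and HFD cold. Most of the sum was Cyp2e1, at 33.5, 34.3, 5.55 and 9.62 CPM in NCD RT, NCD cold, HFD RT and HFD cold. Serpina1a, at 0.626, 1.19 and 2.24 CPM in the first 3 of these groups, was called higher in HFD cold than in NCD cold, by 1.91 (SE 0.41, edgeR adjusted p = 0.0272), whereas Alb, which encodes albumin, stood at 1.44, 0.0940, 0.915 and 0.164 CPM. Their part in the results was not tested.

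The 82 annotated neighbours had 63 entries in the count table, more than 1 of them for Ptprv. Of the 29 entries tested, cold treatment raised 2 and lowered 1 past the call rule on NCD, and 3 and 1 on HFD. These shares lie near those of all genes tested, 6.27% and 9.58%. Bmp8b, a secreted factor of brown fat, lies 144 kb upstream of Mfsd2a and rose on both diets, by 2.36 on NCD (SE 0.42, edgeR adjusted p = 0.0079) and 3.23 on HFD (SE 0.41, edgeR adjusted p = 0.00111). It was higher in HFD cold than in NCD cold, at 33.4 ± 13.4 against 9.96 ± 0.675 CPM, with a log2 difference of 1.75 (SE 0.38, edgeR adjusted p = 0.0279). AA986860, 82.1 kb upstream of Pigr, fell by 1.28 on NCD and 1.46 on HFD. Around Kcnh6, Cyb561 at 54.8 kb and Ccdc47 at 163 kb rose on HFD by 1.06 and 0.86. Timm17a, 190 kb upstream of Lgr6, rose by 0.50 on NCD, and edgeR called 0 of the 3 tested genes around Sgk2 on NCD (1 at an unadjusted p below 0.05, 0 by DESeq2). The start of 4933421A08Rik lies 0.121 kb from that of Mfsd2a on the opposite strand, and it held 0, 12, 1 and 9 counts over NCD RT, NCD cold, HFD RT and HFD cold. No annotated gene overlapped a member.

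**Figure D5:**
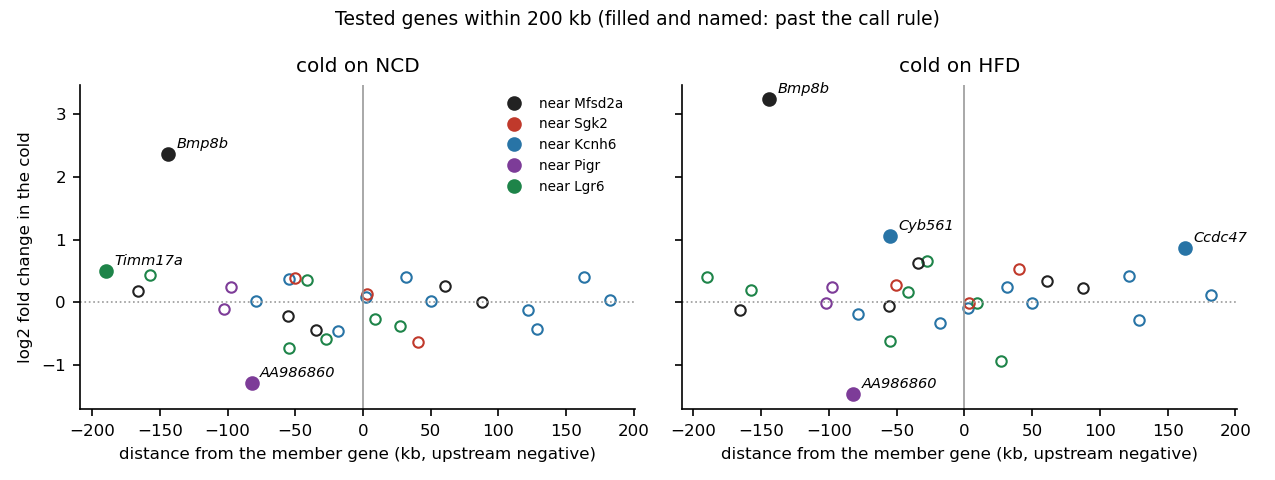
Log2 fold change in the cold of the 29 tested genes within 200 kb of a member against their distance in kb, on NCD and on HFD, coloured by member, with called genes filled and named. Bmp8b, upstream of Mfsd2a, is the highest point in both panels (2.36 and 3.23).

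The genes whose levels resembled each member most were found by Pearson's r of log2 CPM over the 12 libraries, which share the 4 groups and their depth, so r is a description. Mfsd2a was most like Sdc4, a cell surface proteoglycan (r = 0.990), Slc27a2, a fatty acid transport protein and acyl-CoA synthetase (0.971), and Adam12, a metalloprotease (0.970). Sgk2 was most like Gmpr, a guanosine monophosphate reductase (0.987), whose means were 51.2, 783, 196 and 2080 CPM in NCD RT, NCD cold, HFD RT and HFD cold. It was followed by the lncRNA Lncbate10 (0.986) and again Adam12 (0.980). For Kcnh6 these were the noncoding gene QNCMUSG00001974 (0.974), Adam17 (0.969) and Pigr (0.968), and for Pigr they were Acot12 (0.975), Adtrp (0.971) and Kcnh6 (0.968). QNCMUSG00001974 held 0, 8, 3 and 145 counts over NCD RT, NCD cold, HFD RT and HFD cold, near the floor in all groups but HFD cold. Lgr6 was most like Tbc1d20 (0.968), Dlg1 (0.965) and Ctcflos (0.961). Within the groups, deviations from the group mean had an r of 0.85 for Sgk2 and Kcnh6 over 12 libraries. It was 0.77 for Kcnh6 and Pigr, 0.68 for Sgk2 and Pigr, and 0.64 for Mfsd2a and Pigr. Mfsd2a had 0.32 with Sgk2 and 0.33 with Kcnh6, and Lgr6 had an r between -0.23 and 0.20 with the other 4. No library at room temperature held more than 5 counts of Kcnh6 or Pigr, so their deviations there were near the floor.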

How the data were processed

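Total RNA depleted of ribosomal RNA was sequenced from 12 iBAT samples. After trimming by cutadapt, the authors ran salmon on a transcriptome made of GENCODE M22 and RNAcentral 5, summed transcripts by gene and deposited the estimated counts, rounded and not normalized. Whether counting used strand is not given in the sources used here. Libraries held 15136861 to 46740702 counts, and a count of 0 allows up to 3.

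Genes were kept with filterByExpr (minimum count 10), normalized with TMM and fitted with edgeR 4.0.16 (R 4.3.3) by quasi-likelihood on the 4 group means over all 12 libraries. Calls required a Benjamini-Hochberg adjusted p below 0.05 over all 16737 genes and an absolute log2 fold change above 0.5, except for the interaction. Named were the members, genes called in the lists, the closest relatives, genes within 200 kb, the 3 genes most like each member, and those ranked beside them. The members and lists were chosen with earlier results of these data known. CPM per kb used exon lengths of GENCODE M21 on GRCm38. Intervals of pooled ratios and floors cover counting error only.

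Alternatives were DESeq2 1.42.0, its size factors, other count filters, batch as a term, a replicate block, the first batch alone, the 6 libraries compared, robust dispersion, no minimum fold change, each library left out, the longest transcript as length, and, added after seeing the data, the library of each group with the highest muscle markers left out. Same-numbered NCD RT and NCD cold libraries deviated together from their group means (r = 0.22 to 0.46), as did HFD RT and HFD cold (0.15 to 0.39). No source states where this pairing comes from. A simulation with 200 genes changed in HFD cold alone was used to test the count filter, TMM and the main edgeR fit.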

Additional observations from a re-analysis of the deposited data

How the results depend on the processing

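Calls of the members depended on the libraries kept. For cold on NCD, 3 of the 5 members were called in the first batch alone, with only the 6 libraries compared, where Kcnh6 and Pigr did not pass the count filter, and with the library of each group with the highest muscle markers left out. Leaving out 1 library gave 3 to 5 called members for cold on NCD, 5 to 5 for cold on HFD, 1 to 2 for HFD at room temperature, 0 to 2 for HFD in the cold, 2 to 4 for HFD averaged over temperatures and 0 to 0 for the interaction. DESeq2, no filter on counts and only the 6 libraries compared each called 2 members for HFD at room temperature, adding Sgk2 to Lgr6. For HFD in the cold, the replicate block called 1 member, Kcnh6, and the first batch alone and only the 6 libraries compared called 0. The first batch alone called 1 member, Lgr6, for HFD averaged over temperatures. The cause of these changes was not tested, other than the filter and the smaller number of libraries.

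With the replicate block, the members' log2 fold changes were 0.85 to 7.26 in the cold contrasts, and the call of no other member changed. Same-numbered libraries of different diets had correlations of -0.18 to 0.37 at room temperature and -0.21 to 0.20 in the cold, so they did not deviate together as a set. By the labels, same-numbered libraries also came from the same batch. The signs that turned belonged to values outside the calls. The log2 difference of Pigr for HFD at room temperature was -0.92 in the first batch. That of Mfsd2a for HFD in the cold was -0.20 in the first batch, -0.44 without NCD cold replicate 1 and -0.16 without NCD cold replicate 3, and reached 1.27 without NCD cold replicate 2. The fitted interaction of Kcnh6, which depends on the prior count, was -1.45 to 0.018 with 1 library left out, the latter without NCD cold replicate 2, and 0.35 without the libraries highest in muscle markers. The order of the members per kb was the same in 4 of 4 groups with the longest transcript and with DESeq2's size factors, and the interaction gave 0 called members in every alternative. Over all genes the interaction gave 61 calls by DESeq2, 27 without a filter, 22 without HFD cold replicate 2, 3 without NCD cold replicate 2, 3 without the libraries highest in muscle markers, 2 with the block within diet, and 1 each with robust dispersion and the replicate block. With 3 libraries per group and under 10 counts per library, the levels of Kcnh6 and Pigr at room temperature cannot be ranked.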
